A study of Rattus norvegicus with 8 samples.

Results

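The livers of rats given dexamethasone alone were set directly against the livers of rats given GW3965 alone. This contrast used 4 of the 8 arrays of the series, 2 for each compound, chosen by their sample titles. Dex livers came from male Sprague-Dawley rats that were gavaged with vehicle for 3 days and received 1 intramuscular injection of dexamethasone at 1.5 mg/kg on the third day. GW3965 livers came from rats of the same strain that were gavaged with GW3965 at 50 mg/kg for 3 days and injected with saline on the third day. Livers were taken 24 hours after the injection. Vehicle rats, gavaged with vehicle and injected with saline, gave the direction of each compound's change. The fourth group, Dex+GW3965, entered only the estimate of the spread and a few values given for orientation. The compounds differed in dose, route and length of exposure, so the contrast is one of 2 regimens and not of 2 compounds at a matched dose or time.

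Dexamethasone is a synthetic glucocorticoid that binds the glucocorticoid receptor (GR), which in the liver raises the genes of glucose output and amino acid breakdown and damps many inflammatory genes. GW3965 is a synthetic agonist of the liver X receptors (LXRs), which pair with the retinoid X receptor, sense oxidized cholesterol and control sterol export, bile acid synthesis and fatty acid synthesis. Both receptors act on DNA elements near their target genes and can also interfere with the activity of other transcription factors.

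The arrays gave 1 log2 signal for each probe set, so a difference of 1 is a 2-fold difference. Of 31042 probe sets other than Affymetrix controls, 16253 lay above the median of their array on at least 2 of the 8 arrays and were tested, and 9829 genes were read on their brightest probe set. The array medians lay within 0.0357 of each other. The arrays of 1 group differed by a median of 0.0733 between the Dex arrays and 0.0698 between the GW3965 arrays, against 0.161 between the Dex mean and the GW3965 mean. In the sample titles the arrays of a group carry the same liver number and differ by a letter, while the methods mention 2 animals for each treatment, so the p-values may measure technical spread only. In bulk liver, fewer cells of a type and less RNA per cell cannot be told apart.

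Dex and GW3965 livers differed at 6380 of 16253 probe sets (39.3%) by limma at an adjusted p under 0.05. Of these, 3146 (19.4%) were higher in Dex and 3234 (19.9%) were lower. The typical called difference was small, with a median size of 0.388 on the log2 scale. A difference of at least 2-fold was found at 652 probe sets (4.01%), 318 higher (1.96%) and 334 lower (2.06%) in Dex. At least 4-fold differences were carried by 47 genes that were higher and 45 that were lower. On the gene level 4144 of 9829 genes were called (42.2%), 20.9% higher and 21.2% lower, with a median difference of -0.00017 over all genes. These last shares are the background for every gene group below.

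Most of the large differences lay on the Dex side. Of the 318 probe sets at least 2-fold higher in Dex, Dex was above vehicle at 308, while GW3965 was below vehicle at 142, above it at 39 and not called at 137. Of the 334 that were at least 2-fold lower, Dex was below vehicle at 316, while GW3965 was above vehicle at 127, below it at 58 and not called at 149. Against vehicle, 41.9% of probe sets were called for Dex and 20.5% for GW3965, and 4.28% and 0.788% by at least 2-fold. On the gene level 18.0% of genes lay above vehicle and 26.5% below it for Dex, and 5.90% above and 15.9% below for GW3965. Quantile normalization moved the GW3965 probe set calls against vehicle to 1209 above and 1504 below, against 963 above (5.93%) and 2362 below (14.5%) without it, so small GW3965 shifts are given with care. Both comparisons with vehicle use the same vehicle arrays and are given only side by side.

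**Figure D1:**
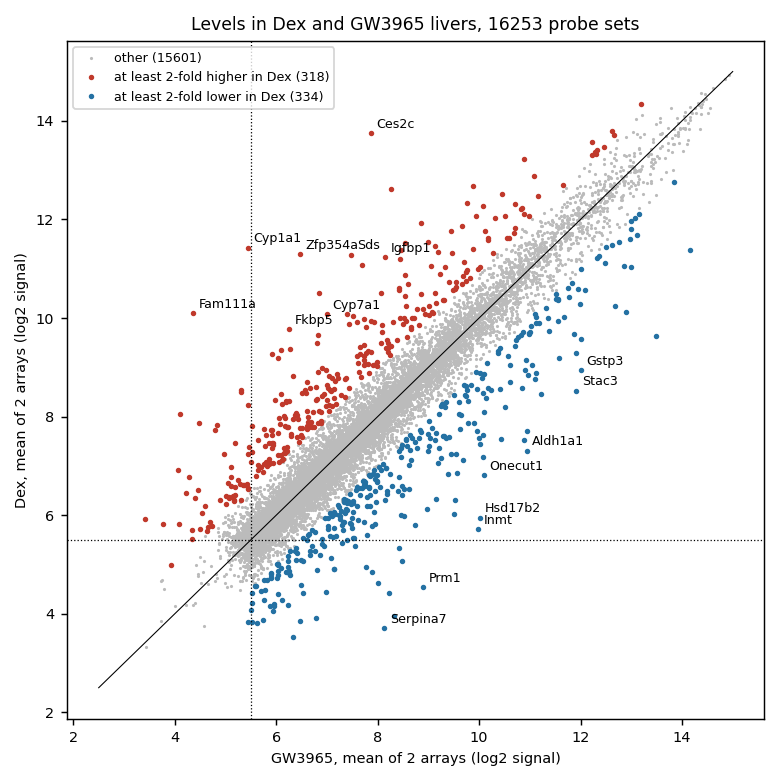
Mean log2 signal of 16253 probe sets on the Dex arrays (vertical axis) against the GW3965 arrays (horizontal axis), 2 arrays each. Red points (318) were at least 2-fold higher in Dex, blue points (334) at least 2-fold lower, grey points are the rest, and dotted lines mark 5.49, the mean of the array medians.

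The largest rise was that of Cyp1a1, a cytochrome that oxidizes aromatic hydrocarbons and is the classic target of the aryl hydrocarbon receptor. Cyp1a1 read 11.40 and 11.45 on the Dex arrays, 5.38 and 5.51 on the GW3965 arrays, and 7.36 and 7.48 on the vehicle arrays. Dex lay above vehicle by 4.00 and GW3965 below it by a difference of -1.97, so that the 2 groups lay on opposite sides of vehicle. On the Dex+GW3965 arrays Cyp1a1 read 7.81 and 7.85, so its high level was seen on the Dex arrays only. A difference between single livers was not tested. The GW3965 level was at about the median of the array and the Dex level was at least 60.7-fold higher (limma adjusted p = 9.8e-20). Ces2c, a carboxylesterase that hydrolyses esters and drugs, read 13.75 on both Dex arrays against 7.86 and 7.88 on the GW3965 arrays and 7.16 and 6.97 on the vehicle arrays. The difference of 5.88 ± 0.05 (SE) corresponds to 58.9-fold, with Ces2c among the brightest transcripts of Dex liver. Fam111a, a protease linked to DNA replication and antiviral defence in human cells, read 10.01 and 10.18 on the Dex arrays, and 4.29 and 4.44 on the GW3965 arrays, where it lay under the median of the array, as it did in vehicle at 4.38 and 4.18. Dex was at least 24.3-fold higher. On the Dex+GW3965 arrays Fam111a averaged 3.54, so its high level was seen on the 2 Dex arrays and on no other arrays.

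Classic glucocorticoid-induced genes stood among the next largest rises. Sds, serine dehydratase, which turns serine into pyruvate, read 11.19 and 11.39 on the Dex arrays, 7.54 and 7.42 on the GW3965 arrays, and 7.84 and 7.69 on the vehicle arrays. Fkbp5, a chaperone that feeds back on GR, read 9.84 and 9.71 on the Dex arrays, 6.27 and 6.25 on the GW3965 arrays, and 6.56 and 6.62 on the vehicle arrays. Igfbp1, which binds insulin-like growth factors, read 11.20 and 11.27 on the Dex arrays, 8.17 and 8.14 on the GW3965 arrays, and 7.91 and 8.17 on the vehicle arrays. In all 3 genes the Dex arrays stood apart and the GW3965 arrays lay close to vehicle. The remaining rises among the top 15 were those of Zfp354a (4.83), Eif4ebp3 (4.35), Fbxl17l1 (at least 2.38), Rgs16 (3.36), Cyp4a8 (3.27), Usp2 (3.10), Cyp7a1 (3.09), A2m (3.07) and Rbp7 (at least 2.34), on the log2 scale. Of these, Eif4ebp3 encodes an inhibitor of cap-dependent translation, Rgs16 a brake on G protein signaling, Usp2 a ubiquitin protease and A2m the acute phase protease inhibitor α2-macroglobulin. Cyp7a1, the hydroxylase that controls how fast bile acids are made, differed from the rest. It read 10.08 on both Dex arrays, 6.99 and 7.00 on the GW3965 arrays, and 10.58 and 10.65 on the vehicle arrays, so that GW3965 lay below vehicle by a difference of -3.62 and Dex by -0.53.

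The largest fitted fall was that of Serpina7, which encodes thyroxine-binding globulin. Serpina7 read 3.74 and 3.66 on the Dex arrays, under the median of the array, 8.10 and 8.16 on the GW3965 arrays, and 6.81 and 6.51 on the vehicle arrays. The Dex level was at least 6.23-fold lower, and the compounds lay on opposite sides of vehicle. Inmt, an indole and thioether methyltransferase, read 5.47 and 5.95 on the Dex arrays, 9.96 and 10.01 on the GW3965 arrays, and 9.15 and 9.24 on the vehicle arrays. Hsd17b2, which inactivates estradiol and testosterone, read 6.00 and 5.90 on the Dex arrays, 10.02 and 10.01 on the GW3965 arrays, and 10.14 and 10.16 on the vehicle arrays. Its difference of -4.06 ± 0.06 (SE) came from Dex, with GW3965 within -0.13 of vehicle. Aldh1a1, which makes retinoic acid from retinal, read 7.33 and 7.28 on the Dex arrays, 10.96 and 10.92 on the GW3965 arrays, and 9.76 and 9.67 on the vehicle arrays. Here the Dex arrays lay below vehicle and the GW3965 arrays above it. The other falls among the top 15 were those of Prm1 (at least 3.41), Slc34a2 (at least 2.98), Stac3 (-3.39), Ubd (-3.37), Onecut1 (-3.28), Slc17a3 (-3.20), Gstp3 (-3.06), Sult1c2 (at least 2.40), Slc25a30 (-2.90), Sult1c2a (-2.88) and Oaz3 (at least 2.27).

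**Figure D2:**
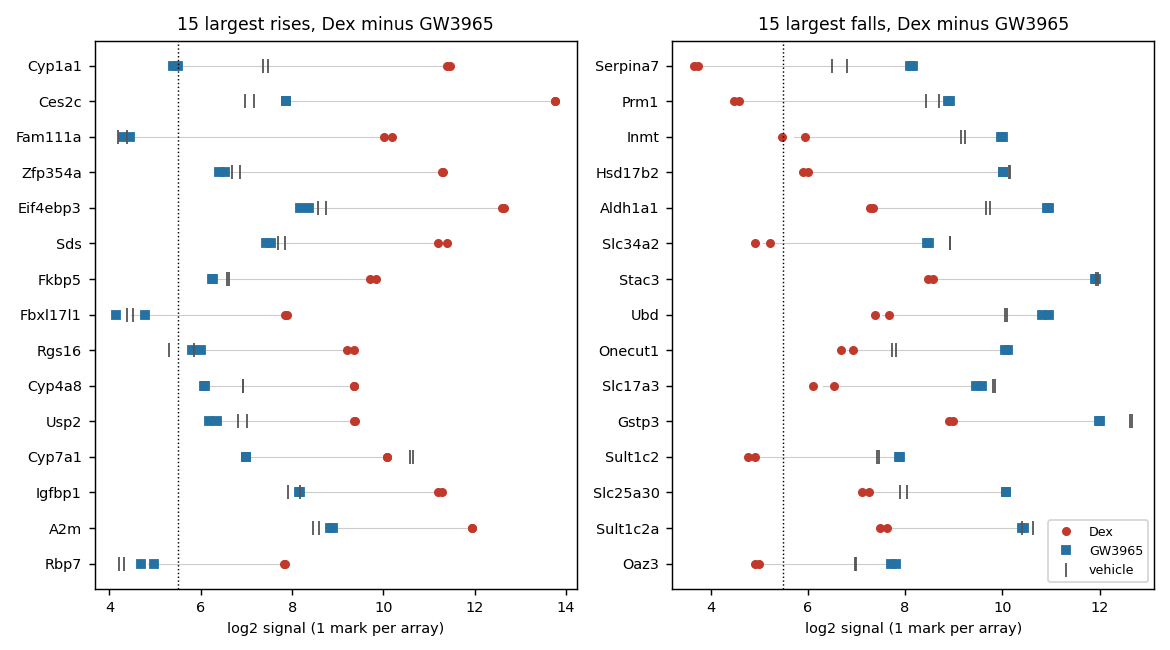
Log2 signal on each array for the 15 genes with the largest rises (left) and the 15 with the largest falls (right) of Dex minus GW3965, with 1 mark per array for Dex, GW3965 and vehicle and the dotted line at 5.49. For Cyp7a1 the GW3965 arrays stand apart from both other groups, and for Serpina7 and Aldh1a1 Dex and GW3965 lie on opposite sides of vehicle.

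Genes that glucocorticoids are known to induce were mostly higher in Dex livers. Of 27 measured members of a list of GR targets, 20 were higher and 5 lower, with a median difference of 0.77 against -0.00017 over all genes. The list holds textbook targets, chosen with earlier results of these data known, so its direction is no independent evidence. Tsc22d3, the glucocorticoid-induced leucine zipper that damps inflammation, read 10.54 and 10.44 on the Dex arrays, 8.82 and 8.87 on the GW3965 arrays, and 8.98 and 8.85 on the vehicle arrays. Cdkn1a, the cell cycle inhibitor p21, was higher by 1.78 ± 0.06 (SE) and the metal-binding Mt2A by 1.92 ± 0.11. Against the general direction, the kinase Sgk1 read 8.76 and 8.63 on the Dex arrays, 10.65 and 10.59 on the GW3965 arrays, and 9.94 and 10.05 on the vehicle arrays. Pdk4, which holds pyruvate back from the citric acid cycle, read 7.61 and 7.72 on the Dex arrays, 9.16 and 9.14 on the GW3965 arrays, and 9.08 and 9.11 on the vehicle arrays. The mRNA of GR itself, Nr3c1, was lower in Dex, at 8.25 and 8.20 against 9.31 and 9.21 on the GW3965 arrays and 9.04 and 8.90 on the vehicle arrays.

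The machinery of glucose output was higher in Dex than in GW3965 livers. Of 21 measured genes, 17 were higher and 1 was lower, with a median difference of 0.52. Besides Sds, the largest differences were in the transaminases Gpt (2.81 ± 0.04, SE) and Got1 (2.57 ± 0.04), which make pyruvate and oxaloacetate from amino acids. Gpt read 12.66 and 12.70 on the Dex arrays, 9.86 and 9.89 on the GW3965 arrays, and 10.27 and 10.30 on the vehicle arrays. Pfkfb1, the liver enzyme that sets fructose 2,6-bisphosphate, read 12.26 and 12.29 on the Dex arrays, 10.12 and 10.04 on the GW3965 arrays, and 9.96 and 10.09 on the vehicle arrays. The paper describes its protein as activating glycolysis and inhibiting gluconeogenesis, so a higher Pfkfb1 mRNA does not by itself mean more glucose output. Slc37a4, which carries glucose 6-phosphate into the endoplasmic reticulum, read 12.23 and 12.21 on the Dex arrays, 10.78 and 10.87 on the GW3965 arrays, and 10.98 and 11.09 on the vehicle arrays. In each of these genes both Dex arrays lay above all GW3965 and vehicle arrays.

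Pck1, the cytosolic enzyme that commits oxaloacetate to glucose, was above vehicle in both groups and differed by less between them. It read 13.33 and 13.25 on the Dex arrays, 12.89 and 12.92 on the GW3965 arrays, and 12.67 and 12.61 on the vehicle arrays. Glucose-6-phosphatase, G6pc1, was not counted because its 4 probe sets are annotated to G6pc1 together with Psme3 and Aoc3. On the 2 brightest of these probe sets Dex was higher by 0.97 and 0.91, and the other 2 gave differences of -0.08 and -0.11 that did not pass. The sugar-use list was mixed, with 8 of 17 genes higher and 3 lower, led by the fructose transporter Slc2a5 at 1.51 and by Pdk4 at -1.49. Glycogen genes were split as well, with 3 of 11 higher and 3 lower. Gys2, liver glycogen synthase, was higher by 0.82 ± 0.05 (SE), while Ugp2, which makes its substrate UDP-glucose, was lower by a difference of -0.90 ± 0.04.

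Genes of amino acid breakdown were mostly higher in Dex. Of 43 genes measured for the degradation of amino acids or the urea cycle, 35 were higher in Dex and 5 lower, with a median difference of 0.49. Against vehicle, 31 were above and 8 below for Dex, and 1 was above and 25 below for GW3965, a count of 22 below under quantile normalization. Tat, tyrosine aminotransferase, read 12.06 and 12.08 on the Dex arrays, 10.48 and 10.54 on the GW3965 arrays, and 11.02 and 11.03 on the vehicle arrays, so that the compounds lay on opposite sides of vehicle. Gnmt, which disposes of excess methyl groups, was higher by 1.35 and the tryptophan-degrading Tdo2 by 1.17. The 5 lower genes were Kmo (-1.28), Oat (-1.02), Aldh4a1 (-0.48), Otc (-0.26) and Cth (-0.20), among them ornithine aminotransferase (Oat) and ornithine transcarbamylase (Otc). Among 13 amino acid transporters, 6 were higher and 4 lower. Slc3a1, a subunit of the cystine transporter, led with 1.75 ± 0.11 (SE), at 7.32 and 7.24 on the Dex arrays against 5.48 and 5.59 on the GW3965 arrays and 5.84 and 6.19 on the vehicle arrays.

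Subunits of the mitochondrial respiratory chain differed by little each but nearly all the same way. Of 44 measured subunits, 41 were higher in Dex and 0 lower, with differences between 0.05 and 0.92 and a median of 0.45. The lead members were Ndufa5 (0.92) and Ndufv2 (0.82) of complex I, Cox8a (0.70) and Cox5b (0.64) of cytochrome oxidase and Sdhb (0.64) of succinate dehydrogenase. Sdhb read 12.44 and 12.43 on the Dex arrays, 11.80 and 11.78 on the GW3965 arrays, and 11.80 and 11.81 on the vehicle arrays. The Dex arrays stood apart and the others overlapped. Against vehicle, 39 subunits were above and 0 below for Dex, while for GW3965 0 were above and 16 below, which became 4 above and 2 below under quantile normalization. Of 29 proteasome genes, 17 were higher and 0 lower in Dex than in GW3965 livers, with a median of 0.17 and no difference beyond 0.39. Against vehicle, Dex was above at 6 and below at 3, with a median of 0.02. GW3965 was above vehicle at 0 and below at 15, with a median of -0.13, and below at 6 under quantile normalization. Cytosolic ribosomal proteins showed no such shift between Dex and GW3965, with 4 of 26 higher, 6 lower and a median of 0.01.

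**Figure D3:**
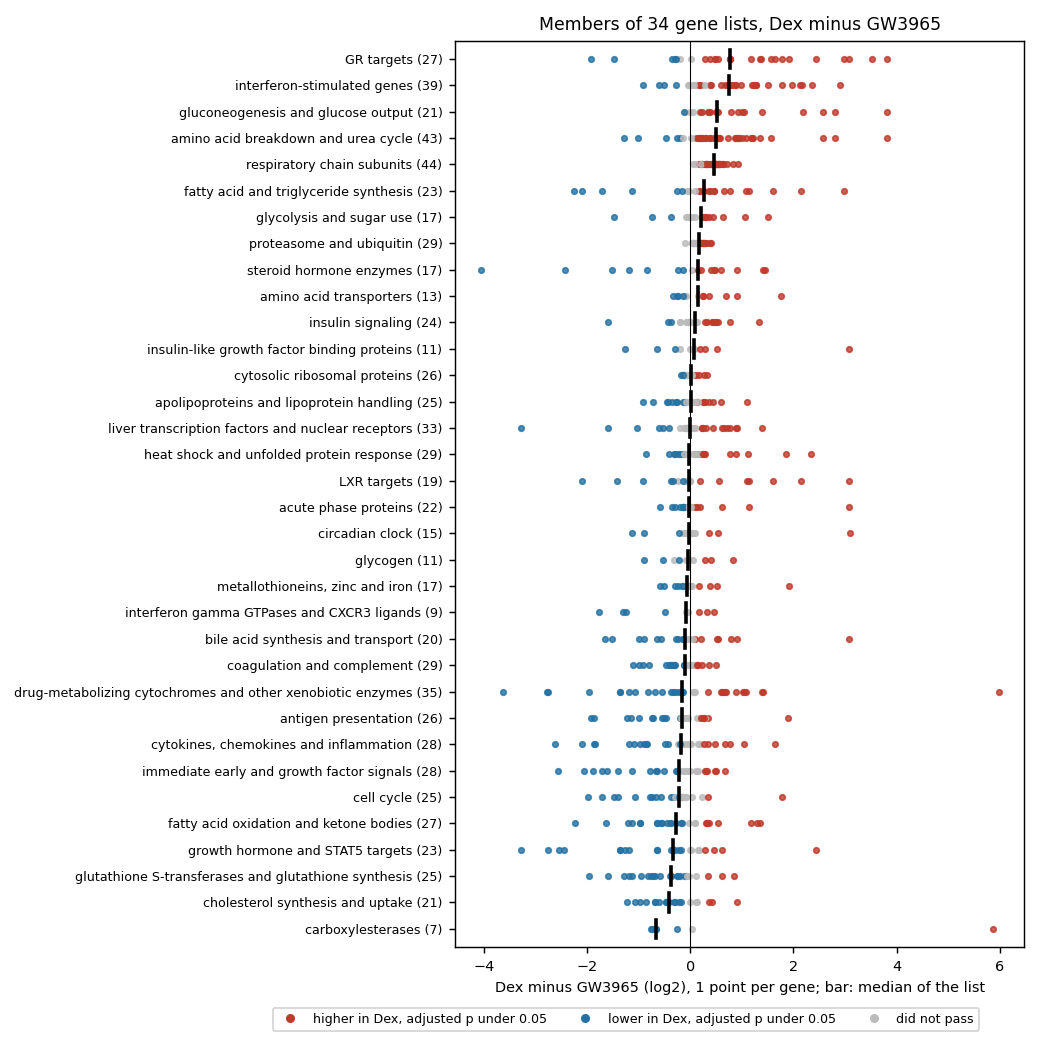
Dex minus GW3965 on the log2 scale for each measured gene of 34 gene lists, ordered by the list median (black bar), with the number of genes in brackets. Red and blue points passed the test as higher or lower in Dex, and grey points did not; 41 of 44 respiratory chain subunits are red and 0 are blue.

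Of 23 measured genes of fatty acid and triglyceride synthesis, 14 were higher in Dex and 6 lower, with a median of 0.26. Acaca, the acetyl-CoA carboxylase that commits carbon to fatty acids, read 11.34 and 11.36 on the Dex arrays, 9.20 and 9.19 on the GW3965 arrays, and 9.71 and 9.75 on the vehicle arrays. Fasn, fatty acid synthase, read 12.33 and 12.31 on the Dex arrays, 10.75 and 10.68 on the GW3965 arrays, and 11.13 and 11.06 on the vehicle arrays. For both enzymes GW3965 lay below vehicle and Dex above it. Lpin1, a phosphatidate phosphatase of triglyceride synthesis, read 11.50 and 11.53 on the Dex arrays, 8.53 and 8.55 on the GW3965 arrays, and 8.43 and 8.49 on the vehicle arrays. Among the 6 lower genes were the desaturases Fads2 (-2.25) and Fads1 (-1.71) and the elongase Elovl5 (-1.14), which act on polyunsaturated fatty acids. Fads2 read 8.63 and 8.54 on the Dex arrays, 10.85 and 10.83 on the GW3965 arrays, and 10.58 and 10.61 on the vehicle arrays. Pnpla3, a lipid droplet acyltransferase and lipase, was also lower, by at least 1.03.

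Genes that LXR is known to control did not share a direction between Dex and GW3965 livers. Of 19 measured LXR targets, 7 were higher in Dex, 6 were lower and 6 did not pass, with a median of -0.03. Against vehicle, 3 were above and 11 below for GW3965, with a median of -0.38 and the same counts under quantile normalization. For Dex, 4 were above and 11 below, with a median of -0.21. Over all genes, 5.90% lay above and 15.9% below vehicle for GW3965, and 18.0% and 26.5% for Dex. More of these LXR targets thus lay below vehicle than above it in both groups. Abca1, the exporter of cholesterol to high-density lipoprotein, read 9.75 and 9.87 on the Dex arrays, 9.25 on both GW3965 arrays, and 7.57 and 7.87 on the vehicle arrays. Both compounds thus lay above vehicle, Dex by 2.09 and GW3965 by 1.53, although other Abca1 probe sets gave differences of -0.03, -0.20 and 0.61 between the compounds. Abcg5, which forms the sterol exporter of the canalicular membrane with Abcg8, read 5.34 and 6.23 on the Dex arrays, 7.73 and 8.03 on the GW3965 arrays, and 8.81 and 9.04 on the vehicle arrays. Abcg8 read 4.09 and 4.05 on the Dex arrays, 5.33 and 5.68 on the GW3965 arrays, and 6.77 and 6.87 on the vehicle arrays. It passed the test and is counted among the 6 lower targets. Its Dex arrays lay under 5.49 and its GW3965 arrays on either side of it. The Dex level was at least 1.01-fold lower, so almost no fall of Abcg8 between the compounds can be read. Both subunits of the exporter lay below vehicle in both groups.

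Several LXR targets showed no detectable difference between the compounds. Srebf1, the master regulator of fatty acid synthesis, differed by -0.03 (95% interval -0.12 to 0.07), and both compounds lay below vehicle, Dex by a difference of -0.54 and GW3965 by -0.51. The stearoyl-CoA desaturase Scd differed by -0.07 (-0.14 to 0.01) at differences from vehicle of -0.79 for Dex and -0.72 for GW3965. The sterol exporter Abcg1 differed by -0.01 (-0.21 to 0.19). The mRNAs of the receptors LXRα, Nr1h3, and LXRβ, Nr1h2, differed by -0.09 (-0.19 to 0.01) and -0.09 (-0.24 to 0.06). Within the spread of these arrays the intervals leave room for small differences only. Like the p-values, they may measure technical spread only, so larger differences between animals are not covered.

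Cholesterol synthesis was lower in Dex. Of 21 measured genes of synthesis and uptake, 15 were lower and 3 higher, with a median of -0.42. Msmo1, a sterol methyl oxidase, read 9.91 and 9.89 on the Dex arrays, 11.15 and 11.12 on the GW3965 arrays, and 11.10 and 11.12 on the vehicle arrays. The Dex arrays stood apart, and the same order was seen for Idi1, with a difference of -0.68. The 3 higher genes were Hsd17b7 (0.90), Tm7sf2 (0.41) and Insig1 (0.36). Lss, lanosterol synthase, lay above vehicle in both groups, by 0.93 in Dex and 1.16 in GW3965. Bile acid genes beyond Cyp7a1 were mixed, with 7 of 20 higher and 10 lower. The uptake carrier Slco1a4 was lower by a difference of -1.66, the reductase Akr1d1 by -1.52 and the racemase Amacr by -0.90. The nuclear receptor Nr0b2, also called SHP, a repressor of bile acid synthesis, read 8.03 and 8.06 on the Dex arrays, 7.25 and 7.04 on the GW3965 arrays, and 7.51 and 7.64 on the vehicle arrays.

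Fatty acid oxidation genes were mostly lower in Dex than in GW3965 livers, with GW3965 mostly above vehicle and Dex on both sides of it. Of 27 measured genes, 16 were lower and 8 higher in Dex, with a median of -0.28. Against vehicle, GW3965 lay above at 16 and below at 1, with a median of 0.26. Dex lay above vehicle at 12 and below at 11, with a median of -0.06. Ehhadh, the peroxisomal bifunctional enzyme, read 8.91 and 8.86 on the Dex arrays, 11.17 and 11.09 on the GW3965 arrays, and 10.48 and 10.46 on the vehicle arrays. Eci1, an enoyl-CoA isomerase, read 9.92 and 9.94 on the Dex arrays, 11.55 and 11.56 on the GW3965 arrays, and 10.23 and 10.42 on the vehicle arrays. The fatty acid ω-hydroxylase Cyp4a1 was lower by a difference of -1.13, with GW3965 above vehicle by 0.90. Cpt1a, which admits fatty acids to mitochondria, ran against the group at 10.87 and 10.85 on the Dex arrays, 9.72 and 9.65 on the GW3965 arrays, and 9.29 and 9.39 on the vehicle arrays. The hormone Fgf21 (1.35) and the peroxisome gene Pex11a (1.29) were higher too. Apolipoprotein genes were balanced, with 9 of 25 higher and 9 lower. Lpl, lipoprotein lipase, read 7.40 and 7.21 on the Dex arrays, 6.19 and 6.25 on the GW3965 arrays, and 7.36 and 7.20 on the vehicle arrays, a difference set by GW3965.

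Detoxification genes were divided. Of 35 measured drug-metabolizing and related genes, 13 were higher and 19 lower in Dex, with a median of -0.16. Next to Aldh1a1, the largest falls were in the epoxide hydrolase Ephx1 (-2.79 ± 0.04, SE) and in Cyp2c12 (-2.75 ± 0.07), a cytochrome typical of female rat liver. Ephx1 read 10.07 and 10.15 on the Dex arrays, 12.89 and 12.91 on the GW3965 arrays, and 12.69 and 12.61 on the vehicle arrays. Por, the electron donor of cytochromes P450, was higher by 1.40 and Nr1i2, the pregnane X receptor, by 1.38. Nr1i2 read 10.52 and 10.50 on the Dex arrays, 9.10 and 9.15 on the GW3965 arrays, and 9.07 and 9.33 on the vehicle arrays. Glutathione genes were mostly lower, with 18 of 25 lower, 3 higher and a median of -0.38. Gclc and Gclm, the subunits of glutamate-cysteine ligase, were lower by differences of -1.60 and -1.19 and the transferase Gsta3 by -1.96. Among the carboxylesterases Ces2c stood alone, since 5 of the other 6 measured genes were lower.

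Steroid metabolism also shifted in both directions, with 9 of 17 genes higher and 7 lower. Serpina6, which encodes corticosteroid-binding globulin, read 10.25 on both Dex arrays, 12.67 and 12.68 on the GW3965 arrays, and 12.55 and 12.52 on the vehicle arrays. H6pd, which supplies reducing power to 11β-hydroxysteroid dehydrogenase, was higher by 1.44 ± 0.04 (SE). The dehydrogenase Hsd11b1, which regenerates active glucocorticoid, differed by 0.03 (95% interval -0.03 to 0.10). Among liver transcription factors, 12 of 33 were higher and 6 lower. Onecut1, a factor of hepatocyte and bile duct identity, read 6.92 and 6.69 on the Dex arrays, 10.11 and 10.06 on the GW3965 arrays, and 7.73 and 7.82 on the vehicle arrays. Its difference thus came mainly from GW3965, whereas that of Foxa2 (-1.59) came from Dex.

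Growth hormone signaling genes were lower in Dex. Of 23 measured targets of growth hormone and STAT5, 15 were lower and 4 higher, with a median of -0.33. Socs2 and Cish, feedback inhibitors of this pathway, were lower by differences of -2.54 ± 0.09 and -2.46 ± 0.07 (SE). Socs2 read 6.14 and 5.84 on the Dex arrays, 8.62 and 8.44 on the GW3965 arrays, and 7.49 and 7.54 on the vehicle arrays. Cish read 6.03 and 5.98 on the Dex arrays, 8.42 and 8.50 on the GW3965 arrays, and 8.01 and 8.02 on the vehicle arrays. In both, the Dex arrays lay below vehicle and the GW3965 arrays above it. The growth hormone receptor Ghr (-1.37), Igfals (-1.27), which stabilizes circulating insulin-like growth factor, and Igf1 itself (-0.65) were lower as well. Bcl6, a repressor that opposes STAT5, went the other way, at 9.86 and 9.88 on the Dex arrays, 7.37 and 7.48 on the GW3965 arrays, and 8.90 and 8.94 on the vehicle arrays. Insulin signaling genes were less affected, with 9 of 24 higher and 3 lower, with the transcription factor Foxo1 highest at 1.33.

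Several immediate early genes stood out on the GW3965 arrays. Of 28 measured genes, 14 were lower in Dex and 6 higher, and GW3965 lay above vehicle at 13 and below at 5, against 7 and 7 for Dex. Egr1 read 8.08 and 7.98 on the Dex arrays, 9.69 and 9.61 on the GW3965 arrays, and 8.05 and 8.14 on the vehicle arrays. Jun read 7.58 and 7.62 on the Dex arrays, 9.36 and 9.26 on the GW3965 arrays, and 8.01 and 7.99 on the vehicle arrays. For Jun the GW3965 arrays lay above vehicle by 1.31 and the Dex arrays below it by a difference of -0.40. For Egr1 only the GW3965 arrays stood apart. Dusp6, a phosphatase of ERK kinases, showed the opposite arrangement, at 7.45 and 7.46 on the Dex arrays, 10.03 and 9.99 on the GW3965 arrays, and 9.93 and 9.92 on the vehicle arrays. Cell cycle genes were lower in 13 of 25 cases and higher in 2, Cdkn1a and Cdkn1b. Ccnd1, cyclin D1, read 6.66 and 6.40 on the Dex arrays, 8.51 and 8.54 on the GW3965 arrays, and 8.99 and 8.94 on the vehicle arrays. Myc was lower by a difference of -1.40. Protein folding genes were divided, 11 of 29 higher and 7 lower, with Edem1 (2.35) and Herpud1 (1.86), both of endoplasmic reticulum-associated degradation, leading.

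Interferon-stimulated genes mostly lay above vehicle in both groups, and further above it in Dex. Of 39 measured genes, 28 were higher in Dex than in GW3965 livers and 4 lower, with a median of 0.74. Against vehicle, Dex lay above at 34 and below at 2, and GW3965 above at 30 and below at 0. Both counts rest on the same 2 vehicle arrays, which carry 1 liver number, and a difference of the vehicle livers themselves was not tested. Isg15, a ubiquitin-like antiviral protein, read 11.38 on both Dex arrays, 8.41 and 8.53 on the GW3965 arrays, and 7.43 and 7.79 on the vehicle arrays. Oas1a, which makes the 2-5A signal for RNA decay, read 9.88 and 9.94 on the Dex arrays, 7.93 and 7.94 on the GW3965 arrays, and 5.99 and 5.85 on the vehicle arrays. Irf7, the transcription factor that amplifies interferon production, read 10.30 and 10.19 on the Dex arrays, 9.02 and 9.01 on the GW3965 arrays, and 7.61 and 7.70 on the vehicle arrays. In these genes the 3 groups did not overlap and GW3965 lay between vehicle and Dex. Usp18 (2.16), Ifit3 (2.12), Mx2 (2.36), Oasl (1.78) and Ifi44 (1.50) were ordered alike, although a second Mx2 probe set gave only 0.22. The 4 lower genes were Irf1 (-0.91), Ifitm3 (-0.61), Ifi27l2b (-0.51) and Lgals3bp (-0.28). Bst2, which tethers virions, lay above vehicle by 0.77 in Dex and 0.79 in GW3965 and differed by -0.02 (95% interval -0.09 to 0.06).

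The promoters of interferon-responsive genes are shown because this group moved together. RefSeq windows of 300 bases, from 250 before to 50 after the gene start on build GRCr8, were at hand for 8214 of the genes measured and for 29 of the 39 interferon genes. The interferon element searched was GAAA repeated with 2 bases of any kind between, on either strand. It occurred in 266 of 8214 promoters (3.24%) and in 17 of 29 interferon promoters (58.6%). Below, capitals mark the matches, which read as TTTC repeated where they lie on the other strand. Oas1a, Ifit3, Irf7 and Ifi44 were higher in Dex, and Gbp2, an interferon-γ-induced GTPase, was lower.
Oas1a, chr12:41330216-41330515, plus strand: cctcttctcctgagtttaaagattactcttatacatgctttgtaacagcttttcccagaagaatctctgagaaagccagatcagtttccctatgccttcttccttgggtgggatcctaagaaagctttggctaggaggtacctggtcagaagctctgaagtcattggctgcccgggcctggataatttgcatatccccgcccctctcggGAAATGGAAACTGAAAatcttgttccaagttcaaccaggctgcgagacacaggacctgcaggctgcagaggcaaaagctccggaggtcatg
Ifit3, chr1:241527076-241527375, plus strand: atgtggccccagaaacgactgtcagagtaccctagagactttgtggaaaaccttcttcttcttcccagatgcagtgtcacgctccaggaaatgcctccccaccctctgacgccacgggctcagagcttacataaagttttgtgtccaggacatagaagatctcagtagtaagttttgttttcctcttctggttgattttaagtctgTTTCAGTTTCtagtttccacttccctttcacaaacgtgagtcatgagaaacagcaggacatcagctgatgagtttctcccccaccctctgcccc
Irf7, chr1:205799974-205800273, minus strand: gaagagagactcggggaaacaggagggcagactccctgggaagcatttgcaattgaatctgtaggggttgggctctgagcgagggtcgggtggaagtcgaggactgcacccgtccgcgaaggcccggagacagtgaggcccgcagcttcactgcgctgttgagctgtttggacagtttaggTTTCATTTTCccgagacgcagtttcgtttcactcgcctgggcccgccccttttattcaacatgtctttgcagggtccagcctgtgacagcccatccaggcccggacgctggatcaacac
Ifi44, chr2:243303791-243304090, minus strand: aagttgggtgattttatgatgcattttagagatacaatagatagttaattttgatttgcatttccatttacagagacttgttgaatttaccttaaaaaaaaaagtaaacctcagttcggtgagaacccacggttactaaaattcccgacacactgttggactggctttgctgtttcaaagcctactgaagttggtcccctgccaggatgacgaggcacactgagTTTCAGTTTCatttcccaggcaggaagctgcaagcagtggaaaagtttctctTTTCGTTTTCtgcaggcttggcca
Gbp2, chr2:234005477-234005776, plus strand: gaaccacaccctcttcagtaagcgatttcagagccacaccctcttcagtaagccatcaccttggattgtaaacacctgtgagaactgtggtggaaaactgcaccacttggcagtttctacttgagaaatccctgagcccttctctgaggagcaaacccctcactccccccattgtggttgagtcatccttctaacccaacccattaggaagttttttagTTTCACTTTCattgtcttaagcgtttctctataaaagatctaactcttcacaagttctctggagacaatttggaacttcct
The first match lay 41 bases before the gene start in Oas1a, 44 in Ifit3, 69 in Irf7, 26 in Ifi44 and 31 in Gbp2. The 17 interferon genes with a match had a median difference of 0.74, with 12 higher and 2 lower, and the 12 without one had 0.73, with 9 higher and 1 lower. Of all 9829 genes 4.33% differed by at least 2-fold, 2.04% higher and 2.29% lower in Dex. Among promoters of the higher genes, 5.52% held the element, and 6.59% of those of the lower genes. The hexamer AGAACA of the glucocorticoid element was found in 26 of 163 promoters of genes higher in Dex by 2-fold, in 31 of 182 (17.0%) of those lower and in 13.2% of all. The hexamer AGGTCA of the LXR element was found in 20.2%, 19.2% and 13.3% in the same order. The full glucocorticoid element, AGAACA and TGTTCT with 3 bases between, and the full LXR element, AGGTCA repeated with 4 bases between, were found in 0 of 8214 windows. A match is a string of letters only.

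Of 9 measured genes induced by interferon γ, 3 were higher in Dex than in GW3965 livers and 4 lower. Against vehicle, Dex lay above at 3 and below at 4, and GW3965 above at 5 and below at 0. Gbp2 read 6.17 and 6.03 on the Dex arrays, 7.44 and 7.35 on the GW3965 arrays, and 6.30 and 6.44 on the vehicle arrays, with the GW3965 arrays apart. Cxcl9, which attracts T cells, was lower by a difference of -1.77 and Irf8 by -1.25. Of 26 antigen presentation genes, 5 were higher in Dex and 11 lower. The class II genes RT1-Da (-1.92), RT1-Bb (-1.87), Cd74 (-1.22) and RT1-Db1 (-1.14) were lower, as was RT1-Ba, while RT1-DMa, which loads peptide onto class II, was higher by 1.90. The immunoproteasome genes Psmb9 (-0.75), Psmb10 (-0.73) and Psmb8 (-0.47) were lower too. The class I gene RT1-N2 read 8.60 and 8.55 on the Dex arrays, 8.38 and 8.37 on the GW3965 arrays, and 4.79 and 4.42 on the vehicle arrays. Both groups lay far above vehicle, with a difference of 0.19 (95% interval -0.00 to 0.39) between them. Whether the vehicle livers themselves differed in this gene was not tested.

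Of 28 cytokine and inflammation genes, 13 were lower in Dex, 7 were higher and 8 did not pass. Cxcl12, a chemokine that holds leukocytes and progenitors in tissue, read 9.27 and 9.30 on the Dex arrays, 11.92 and 11.91 on the GW3965 arrays, and 11.60 and 11.69 on the vehicle arrays. Il33, an alarmin, read 7.26 and 7.06 on the Dex arrays, 9.34 and 9.17 on the GW3965 arrays, and 9.56 on both vehicle arrays. Cd14, the lipopolysaccharide co-receptor, read 8.52 and 8.59 on the Dex arrays, 10.37 and 10.44 on the GW3965 arrays, and 9.33 and 9.27 on the vehicle arrays. The first 2 differences came mainly from Dex, and Cd14 lay on opposite sides of vehicle. Il6r, the interleukin 6 receptor, was higher by 1.65 and the NF-κB inhibitor Nfkbia by 0.77. The chemokine Ccl9 was lower by a difference of -0.84. Acute phase genes were divided, 6 of 22 higher and 9 lower, with A2m, Orm1 (1.14) and Serpina3n (0.61) highest and the iron hormone Hamp (-0.60) lowest. Coagulation and complement genes were lower in 15 of 29 cases and higher in 5, led by C1s (-1.12) and C9 (-0.99).

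In most lists of markers of other liver cells, more genes were lower in Dex than higher. Of 13 measured markers of Kupffer cells and macrophages, 10 were lower in Dex and 2 higher, and the log2 of their summed level was 12.62 and 12.61 on the Dex arrays against 13.04 on both GW3965 arrays. Aif1 was lower by a difference of -1.68 on 1 probe set and by -0.08 on another, and Cd5l was lower by -1.41. The Kupffer cell lectin Clec4f was lower by -0.40, and Lyz2 was higher by 0.62. T and NK cell markers were lower at 3 of 5, B and plasma cell markers at 2 of 3, stellate cell and matrix genes at 9 of 18 with 5 higher, and endothelial genes at 6 of 11 with 2 higher. Bile duct markers were lower at 2 of 6 and red cell genes at 3 of 4. The called bile duct marker Krt19, the called B cell marker Cd37 and the only called neutrophil marker, S100a9, lay under 5.49 in both groups, so no direction is read from them. Hepatocyte markers, which include the GR target Tat, were balanced, 5 of 14 higher and 5 lower, and albumin (Alb) differed by -0.00 (95% interval -0.06 to 0.06). The part of these cells in the falls of class II, cytokine and complement genes was not tested.

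Transcripts of testis and sperm were also seen on these liver arrays and were looked at after Prm1 and Oaz3 appeared among the falls. Prm1, which packs sperm DNA, read 4.48 and 4.59 on the Dex arrays, 8.88 and 8.92 on the GW3965 arrays, and 8.69 and 8.43 on the vehicle arrays. On 7 of 14 probe sets both GW3965 arrays lay above both Dex arrays by 1 or more. The log2 of the summed level was 9.06 and 9.18 on the Dex arrays, 10.70 and 10.71 on the GW3965 arrays, 9.13 and 9.17 on the Dex+GW3965 arrays, and 10.31 and 10.23 on the vehicle arrays. All arrays of the groups injected with dexamethasone thus lay below all arrays of the groups injected with saline. Prm1 and Oaz3, which prompted the list, are among the 7 probe sets and in the summed level. The separation is thus partly that of the genes by which the list was chosen. The origin of these signals was not tested, and the falls of Prm1 and Oaz3 are given with that limit.

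**Figure D4:**
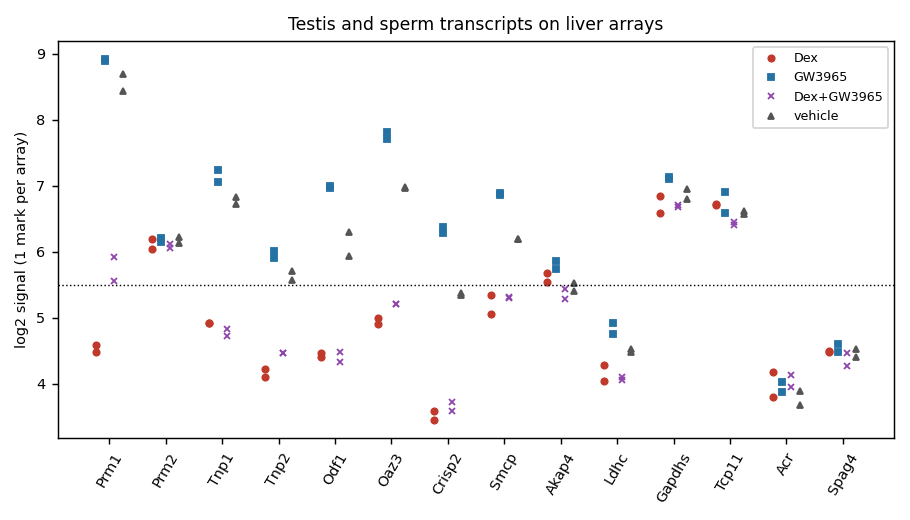
Log2 signal of 14 testis and sperm transcripts, 1 mark per array, for Dex, GW3965, Dex+GW3965 and vehicle, with the dotted line at 5.49. On 7 of 14 probe sets both GW3965 arrays lie at least 1 above both Dex arrays, and there the Dex+GW3965 arrays lie nearer to the Dex arrays than to the GW3965 arrays.

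Against vehicle, 4.62% of the 9829 genes changed at least 2-fold with Dex and 0.712% with GW3965. Both comparisons share the vehicle arrays, so genes that changed 2-fold in both are given only by their values. Among those with opposite directions were Serpina7, Aldh1a1 and Socs2, low in Dex and high in GW3965, and Cyp1a1 and Slc13a5, the reverse. Slc13a5, the hepatic citrate importer, read 9.66 and 9.63 on the Dex arrays, 6.80 and 6.85 on the GW3965 arrays, and 7.88 and 7.91 on the vehicle arrays. Among genes changed the same way, those that differed least between the compounds included Slc25a25, a mitochondrial ATP and phosphate carrier, and the class I gene RT1-CE12. Slc25a25 read 8.78 and 8.75 on the Dex arrays, 8.75 and 8.71 on the GW3965 arrays, and 7.48 and 7.49 on the vehicle arrays, a difference of 0.04 (95% interval -0.09 to 0.16) between Dex and GW3965. RT1-CE12 read 11.85 and 11.82 on the Dex arrays, 11.75 and 11.80 on the GW3965 arrays, and 9.69 and 9.27 on the vehicle arrays, a difference of 0.06 (-0.11 to 0.24). Angptl4, an inhibitor of lipoprotein lipase, lay above vehicle by 1.32 in Dex and 1.60 in GW3965 and differed by -0.28 (limma adjusted p = 0.00022).

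**Figure D5:**
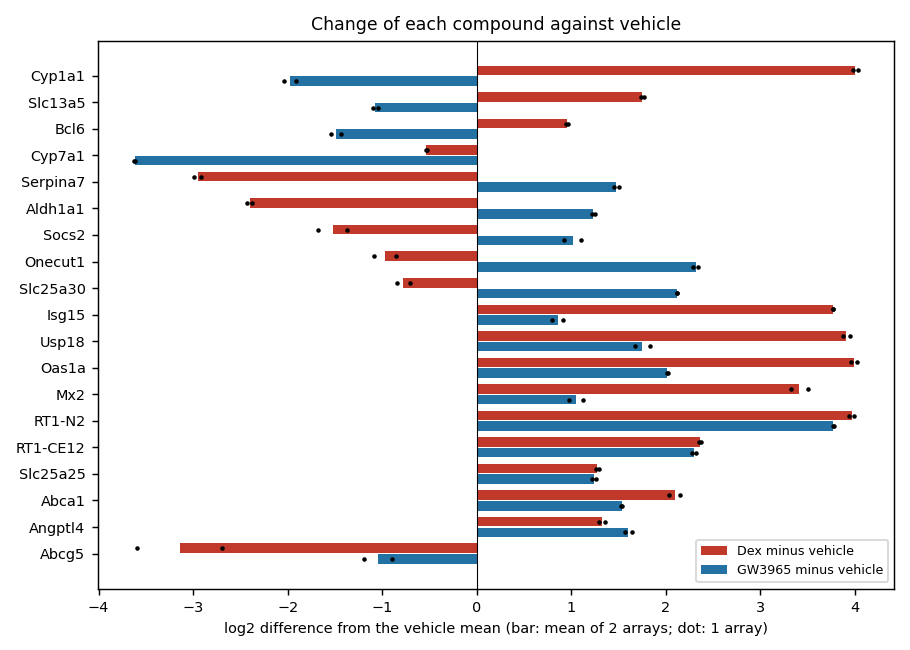
Difference from the vehicle mean on the log2 scale for Dex (red) and GW3965 (blue), with bars for the mean of 2 arrays and dots for single arrays. Cyp1a1, Slc13a5 and Bcl6 lie above vehicle in Dex and below it in GW3965, and Serpina7 to Slc25a30 do the reverse. RT1-N2, RT1-CE12 and Slc25a25 lie above vehicle in both.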

How the data were processed

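Liver RNA of 4 groups was measured on 8 Affymetrix rat arrays, and groups were read from the sample titles. The authors deposited log2 signals, 1 per probe set and array, for which the methods describe re-mapping of probes to UniGene, subtraction of a MAS background and use of perfect-match probes only. MAS5, with no version, is named in the submitters' processing notes. The log2 scale was inferred from the values, which run between 2.497 and 14.95. The number of arrays, 2 per group, limits the precision.

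The values were not normalized again. Of 31099 probe sets, 57 controls were removed, and those above the median of their array on at least 2 of 8 arrays were kept. A group means model on all 8 arrays was fitted with limma 3.58.1 (lmFit, eBayes with an intensity trend) in R 4.3.3, and the 2-sided moderated test of Dex minus GW3965 was adjusted by Benjamini-Hochberg over 16253 probe sets. Dex minus vehicle and GW3965 minus vehicle came from the same fit. The script was tested on simulated data. Symbols were taken from the platform annotation and updated through 20758 matched gene identifiers to RefSeq GRCr8, and 9780 probe sets carried no symbol and 436 several. Promoters came from RefSeq GRCr8.

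Where 1 group lay under 5.49, the mean of the array medians, the difference is a bound, written "at least". Named were the 15 largest rises and falls among called probe sets with 1 symbol, separated arrays and a higher group above 5.49, up to 5 called members of each list, up to 5 genes moved 2-fold by both compounds in the same or in opposite directions, and genes of the study's text; other list members are given with their values. The members and lists were chosen with earlier results of these data known, and the testis list after its genes were seen. No set test was run. The alternatives were quantile normalization, median centring, 2 other filters, a fit on 4 arrays, no trend, the replicate letter as a block, probe sets averaged per gene, the methods' t-test and leaving out each array.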

Additional observations from a re-analysis of the deposited data

How the results depend on the processing

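The count of probe sets that differed between Dex and GW3965 stayed between 5841 and 6641 under quantile normalization, median centring, both other filters, the fit on 4 arrays and the fit without a trend, with 48.7% to 52.2% of the calls higher in Dex. Averaging the probe sets of a gene gave 4184 for Dex against GW3965, 4408 for Dex against vehicle, 2079 for GW3965 against vehicle and 405 at least 2-fold, with 9829 genes tested in place of 16253 probe sets. Leaving out 1 array at a time gave 5067 to 6630 for Dex against GW3965 and 5451 to 6761 for Dex against vehicle. For GW3965 against vehicle it gave 1804 to 3243, the lowest without GW3965 replicate b, with 2127 without GW3965 replicate a. The methods' t-test on the log ratios of same-lettered arrays called 3233 probe sets unadjusted and 2 after Benjamini-Hochberg adjustment, and 583 with the z distribution limit, which was added after seeing the data; limma called 7446 at an unadjusted p under 0.05.

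The replicate letters showed no pairing of the Dex and GW3965 arrays, whose same-lettered deviations correlated at -0.00936. Over all pairs of groups the correlations lay between -0.232, for vehicle with Dex+GW3965, and 0.0831, for vehicle with GW3965. With the replicate block 6215 probe sets were called, 3070 higher and 3145 lower. Of 218 named genes, all kept their direction and call under quantile normalization and the replicate block. Leaving out 1 Dex or GW3965 array lost the call of Slc7a8, Cxcl10, Steap4, S100a9, Stab1, Krt19, Spp1 or Ttpa in at least 1 case. Counts of 5 or more called members fell by over 1.5 times for antigen presentation (5 higher, 3 without Dex a), acute phase proteins (9 lower, 5 without Dex a), coagulation and complement (5 higher, 3 without Dex b), ribosomal proteins (6 lower, 3 without Dex b), metal-handling genes (6 lower, 3 without GW3965 a) and hepatocyte markers (5 higher, 3 without Dex b or GW3965 b, and 5 lower, 2 without Dex a and 3 without GW3965 a), and smaller counts moved for 6 lists. Without a Dex or a GW3965 array the lone array of that group is assumed to vary like the other groups. Differences of genes under 5.49 in 1 or both groups are limited by signal over background.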

Other observations

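The Dex+GW3965 arrays, given above only for Cyp1a1, Fam111a and the testis transcripts, lay nearer the Dex mean for most probe sets that separated the compounds. Of the 318 probe sets at least 2-fold higher in Dex than in GW3965 livers, the Dex+GW3965 mean was nearer the Dex mean at 249 and nearer the GW3965 mean at 69. Of the 334 that were at least 2-fold lower, it was nearer the Dex mean at 247 and nearer the GW3965 mean at 87. Ces2c averaged 13.63 and Gpt 12.50 on the Dex+GW3965 arrays, close to Dex. Cyp1a1 averaged 7.83, near its vehicle level, and Tat 10.15, below its vehicle level. Isg15 averaged 12.89, Mx2 10.18 and Oas1a 10.40, above the levels on the Dex arrays. These are descriptions without a test.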
